A study of Rattus norvegicus with 14 samples.

Results

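Wt1, Podxl and Vegfa, 3 genes that mark the podocyte, were followed across 14 transcript libraries of cortical glomeruli that were isolated by sieving from male rats of the Dahl salt-sensitive strain SS/JrHsdMcwiCrl. They were taken by Ensembl ID from a table of 12934 rat gene IDs: ENSRNOG00000013074 for Wt1, ENSRNOG00000012495 for Podxl and ENSRNOG00000019598 for Vegfa. The symbols came with the choice of the 3 IDs. The deposited files hold IDs alone and the RefSeq table used here lists no Ensembl IDs, so the pairing was not checked against a reference. Of the libraries, 7 came from rats given 4% NaCl in the diet (high salt) and 7 from rats given 0.4% NaCl (normal salt), in each case for 21 days from the age of 8 weeks. All animals share the inbred salt-sensitive background and no other strain was analysed here. Each library carries a sample number between 9 and 24, odd on high salt and even on normal salt, whose meaning the labels do not give. The labels do not state whether each library is a separate rat, so the spread that p-values rest on may be technical.

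Podocytes are the epithelial cells that wrap the glomerular capillaries with interlocking foot processes and carry the slit diaphragm of the filter. Wt1 encodes a zinc finger transcription factor that podocytes need during development and keep expressing in the adult. Podxl encodes podocalyxin, the negatively charged sialomucin that coats the foot processes and is linked to the actin skeleton through ezrin. Vegfa encodes vascular endothelial growth factor A, which podocytes secrete towards the glomerular endothelium, where it acts on receptors that maintain the fenestrated capillary wall. Podxl is also made by endothelial cells, and Vegfa by tubule cells.

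Because Wt1 is a DNA-binding regulator with reported targets in podocytes, the start regions of the other 2 genes are shown with the letters of its motif family. RefSeq windows of 300 bases on build GRCr8, from 250 bases before to 50 after an annotated start, were found for 3 of 3 genes by symbol. They were searched on both strands for GNGNGGGNG, a core shared by EGR and WT1 zinc finger sites, and for GGGCGG, the core of GC boxes. Capitals mark the matches to GNGNGGGNG, and overlapping matches run together.
Podxl, chr4:61149082-61149381, minus strand: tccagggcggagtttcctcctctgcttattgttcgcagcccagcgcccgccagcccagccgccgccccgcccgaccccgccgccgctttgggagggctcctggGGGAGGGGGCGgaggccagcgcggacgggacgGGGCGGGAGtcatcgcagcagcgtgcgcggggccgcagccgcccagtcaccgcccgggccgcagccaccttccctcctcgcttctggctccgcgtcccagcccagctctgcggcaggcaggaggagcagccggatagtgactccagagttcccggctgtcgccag
Vegfa, first start, chr9:22452604-22452903, plus strand: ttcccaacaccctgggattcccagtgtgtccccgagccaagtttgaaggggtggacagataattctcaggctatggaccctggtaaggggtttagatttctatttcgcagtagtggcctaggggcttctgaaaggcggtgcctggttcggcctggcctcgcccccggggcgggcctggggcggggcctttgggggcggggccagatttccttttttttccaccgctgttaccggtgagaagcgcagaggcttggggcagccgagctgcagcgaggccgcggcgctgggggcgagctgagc
Vegfa, internal start, chr9:22460028-22460327, plus strand: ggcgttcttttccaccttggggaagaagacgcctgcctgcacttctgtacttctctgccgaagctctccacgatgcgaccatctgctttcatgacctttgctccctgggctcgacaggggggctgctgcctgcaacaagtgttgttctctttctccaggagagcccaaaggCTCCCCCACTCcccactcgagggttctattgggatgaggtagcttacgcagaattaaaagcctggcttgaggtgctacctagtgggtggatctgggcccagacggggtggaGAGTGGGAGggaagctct
The Podxl window held 3 matches to GNGNGGGNG, whose first bases lie at -147, -145 and -115 from the start, and 7 GC boxes, of which 2 overlap those matches. The window at the first Vegfa start held 0 matches to GNGNGGGNG and 3 GC boxes, and the window at the internal start held 3 matches, with first bases at -79 and -77 on the opposite strand and at 33, and 0 GC boxes. The Wt1 window (chr3:112021759-112022058, plus strand) held neither. Among all 33469 windows of this length, 36.7% held GNGNGGGNG at least once and 11.1% at least 3 times, and 33.1% held GGGCGG. The windows of the 3 genes were richer in G and C than most: 74.7% in Podxl, 71% in Wt1 and 63.3% and 57.3% in Vegfa, against a median of 51.7%. A match is a run of letters and does not show binding.

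The libraries held 13797146 to 18151197 counts, from 3′ tags that read a transcript near its end. A few IDs took much of this depth: the 10 most abundant held 30.8% to 64.9% of all counts in a library, 47.5% ± 11.3 in the high salt group against 45.1% ± 5.2 under normal salt (SD, n = 7 each). Levels are given in CPM, counts scaled to a common library size after correction of library totals by the trimmed mean of M values (TMM), which is little affected by a few dominant IDs. In RNA from whole glomeruli, fewer podocytes and less RNA per podocyte cannot be told apart. Defining markers of other glomerular and tubular cells were not analysed here, since their IDs have no symbols in the sources used.

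Podxl and Vegfa were among the most abundant transcripts of the glomerular preparations, and Wt1 was moderately abundant. Podxl, the surface sialomucin, ranked between 18th and 49th of the 12934 IDs by count, with a median rank of 29. Vegfa, the secreted growth factor, ranked between 43rd and 137th, with a median rank of 78.5. Wt1, the transcription factor, ranked between 381st and 2337th, with a median rank of 1128.5. A 3′ tag protocol yields about the same number of tags from long and short transcripts, so these counts were not divided by length, and the ranks are descriptions on the count scale. Podxl made up 0.135% of all counts on average over the 14 libraries, Vegfa 0.0694% and Wt1 0.0121%. The order Podxl above Vegfa above Wt1 held in all 14 libraries: Podxl had 6.09 to 29.3 counts for each Wt1 count, and Vegfa had 0.314 to 0.691 counts for each Podxl count.

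**Figure D1:**
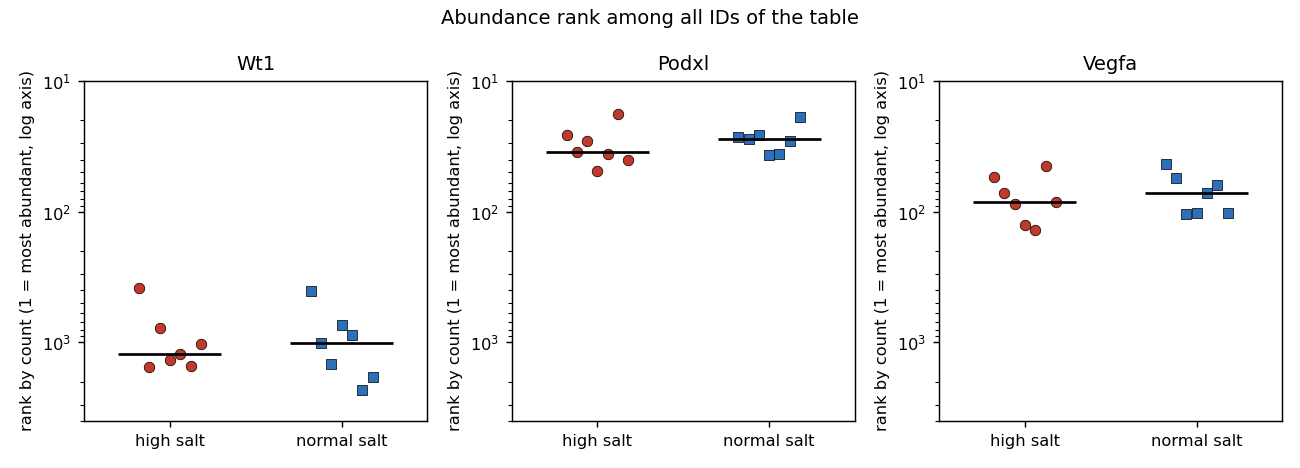
Rank of Wt1, Podxl and Vegfa by raw count among the 12934 IDs of each library, on a log axis with rank 1 at the most abundant end; each point is a library, and the bar is the median of the 7 libraries of a diet. Podxl stays between rank 18 and 49, while Wt1 spans 381 to 2337.

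Wt1 was counted 948 to 3899 times per library, Podxl 9833 to 35528 times and Vegfa 4823 to 18994 times. If each count were a separate molecule, which the sources do not state, counting error alone would give a coefficient of variation of 2.32% for Wt1, 0.691% for Podxl and 0.968% for Vegfa, and the observed values were 45.8%, 19.3% and 25.9% of the mean CPM (n = 14). The biological coefficient of variation fitted by edgeR within diets was 38.7% for Wt1, higher than in 83.7% of the 11158 IDs tested. It was 20.5% for Podxl and 25.5% for Vegfa, on either side of the median of 23.9%. Wt1 was thus the most variable of the 3 genes between libraries, with a highest level 4.34 times its lowest, against 1.95 times for Podxl and 2.13 times for Vegfa.

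None of the 3 podocyte genes differed between the diets by more than the spread of the libraries. The diet groups address how added dietary salt bears on the glomerular transcripts of this strain. Differences were tested with edgeR on all 11158 IDs that passed a filter on low counts, which kept 3 of the 3 genes. At an adjusted p below 0.05 the diet comparison called 0 of these IDs (0%), and at an unadjusted p below 0.05 it listed 202 (1.81%), none of them among the 3 genes. DESeq2, run on all 12934 IDs without that filter, also called 0 IDs, and listed 343 at an unadjusted p below 0.05.

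Wt1 had a lowest, median and highest level of 79.6, 100.6 and 242 CPM in the high salt group, and of 55.9, 114.6 and 220 CPM on normal salt. The 2 groups overlapped almost completely. Number 9 was the highest on high salt and number 10 on normal salt, and the next libraries stood at 139 and 143 CPM. The mean was 121 ± 57.2 CPM (SD, n = 7) in the high salt group, against 115 ± 55.5 CPM (SD, n = 7) under normal salt. The log2 fold change, high minus normal salt, was 0.074 ± 0.30 (SE; edgeR's quasi-likelihood test, unadjusted p = 0.806, adjusted p = 0.9997). The 95% interval of the ratio ran from 0.681 to 1.63, so a 1.5-fold rise of Wt1 lay inside it. High and normal salt alternate along the sample number, and fits that use this gave narrower intervals, which such a rise lay outside: 0.805 to 1.44 in 7 blocks of consecutive numbers and 0.740 to 1.44 with the number as a covariate (edgeR). Its sign turned without high salt number 9, where the log2 fold change was -0.19, without normal salt number 22 (-0.043) or number 24 (-0.020), and in numbers 9 to 16 alone (-0.027).

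Podxl had a lowest, median and highest level of 915, 1198 and 1786 CPM in the high salt group, and of 1090, 1309 and 1664 CPM on normal salt. The high salt group held both the lowest library, number 15, and the highest, number 21, so the normal salt values lay inside its range. The mean was 1271 ± 287 CPM (SD, n = 7) in the high salt group, against 1340 ± 229 CPM (SD, n = 7) under normal salt. The log2 fold change was -0.076 ± 0.15 (SE; edgeR, unadjusted p = 0.617, adjusted p = 0.9997), and the 95% interval of the ratio ran from 0.762 to 1.18. This was the narrowest interval of the 3 genes, and neither bound reached a 1.5-fold change. With any 1 library omitted, the log2 fold change stayed between -0.16 and -0.010.

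Vegfa had a lowest, median and highest level of 449, 625 and 955 CPM in the high salt group, and of 498, 640 and 925 CPM on normal salt. The lowest and the highest library were again both on high salt, numbers 15 and 21, as for Podxl. The mean was 665 ± 194 CPM (SD, n = 7) in the high salt group, against 673 ± 165 CPM (SD, n = 7) under normal salt. The log2 fold change was -0.017 ± 0.19 (SE; edgeR, unadjusted p = 0.931, adjusted p = 0.9997), and the 95% interval of the ratio ran from 0.749 to 1.30. Its sign turned without any one of numbers 10, 12, 13, 15, 17 or 22, and over single omissions the value ran from -0.11 without number 21 to 0.076 without number 10.

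In the authors' deposited table the log2 fold change of the diet means was 0.077 for Wt1, -0.074 for Podxl and -0.015 for Vegfa, with no error. Within sample numbers 9 to 16, with 4 libraries per diet, the edgeR log2 fold change was -0.027 for Wt1, -0.083 for Podxl and -0.083 for Vegfa. Within numbers 17 to 24, with 3 per diet, it was 0.27 for Wt1, -0.074 for Podxl and 0.066 for Vegfa. A diet effect that changed along the sample number was not called for any of the 3 genes by edgeR (adjusted p = 0.998 for each, with 0 of 11158 IDs called and 213 at an unadjusted p below 0.05).

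**Figure D2:**
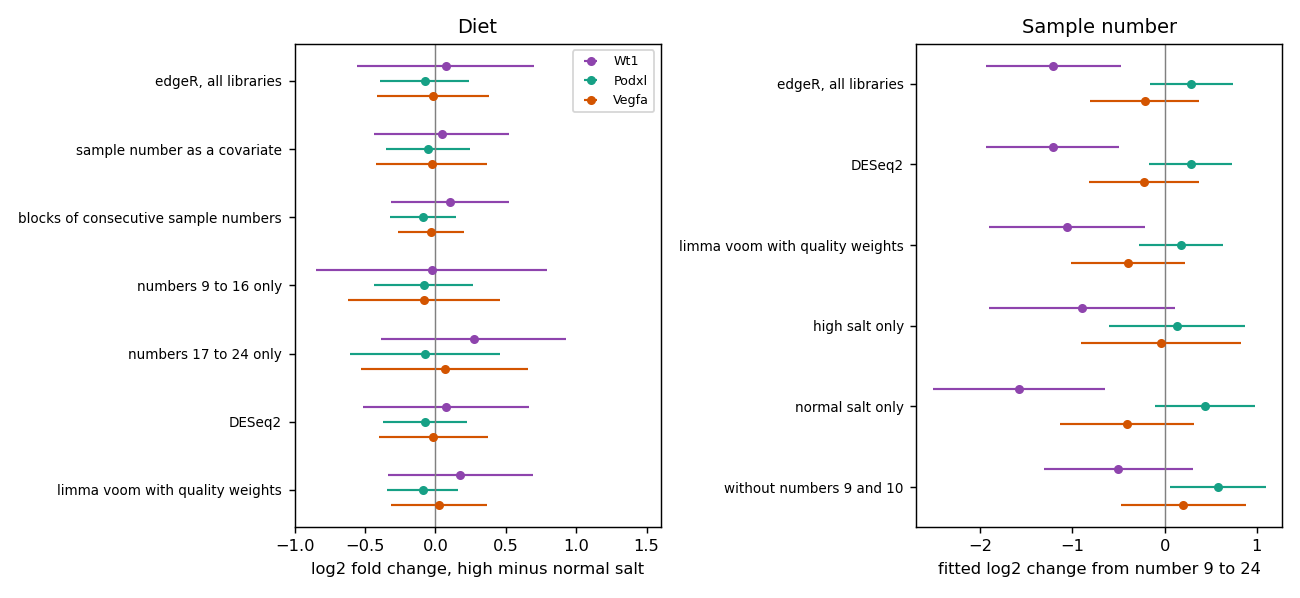
Left: log2 fold change of Wt1, Podxl and Vegfa, high minus normal salt; right: fitted log2 change from sample number 9 to 24. Points are estimates and bars 95% intervals under the fit named on the vertical axis; each diet interval spans 0, and for the number the Wt1 interval lies below 0 with all libraries (-1.94 to -0.47) and spans 0 without numbers 9 and 10.

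The proportions of the 3 transcripts to each other also did not differ between the diets beyond the spread. These ratios of counts within a library do not depend on how libraries are scaled. The mean log2 ratio of Podxl to Wt1 was 3.46 ± 0.56 in the high salt group against 3.66 ± 0.85 under normal salt (SD, n = 7 each; two-sided exact permutation test over 3432 arrangements, p = 0.617). For Vegfa to Wt1 it was 2.51 ± 0.57 against 2.64 ± 0.64 (exact permutation p = 0.676). For Vegfa to Podxl it was -0.96 ± 0.24 against -1.01 ± 0.42 (exact permutation p = 0.756). After Benjamini-Hochberg adjustment over the 3 ratios each exact p was 0.756.

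Wt1 was lower at higher sample numbers in a straight-line fit, and this rested largely on the first 2 libraries. With diet in the edgeR model, Wt1 changed by -1.21 ± 0.35 on the log2 scale (SE; adjusted p = 0.0343) from number 9 to number 24, to a fitted 0.433 of its level at number 9 (95% interval 0.260 to 0.720). The same fit called 1418 of 11158 IDs (12.7%), of which 640 (5.74%) were lower and 778 (6.97%) higher at higher numbers. A call is therefore common in these libraries, and 6.69% of the IDs tested had a more negative change than Wt1. By rank, the correlation of Wt1 with the number did not pass (rho = -0.503, permutation p = 0.0708, adjusted p = 0.212). By Pearson it was r = -0.631 (permutation p = 0.0154, adjusted p = 0.0463).

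The Wt1 levels at numbers 9 and 10 were 242 and 220 CPM, and the other 12 libraries lay between 55.9 CPM at number 22 and 143 CPM at number 16. No other library came near these 2, the lower of which was 1.54 times the highest of the rest. Without both, a choice made after the values were seen, the fitted change was -0.50 (95% interval -1.31 to 0.30; edgeR, adjusted p = 0.466). The call was also lost without number 9 alone (edgeR, change -0.91, adjusted p = 0.136) and without number 10 alone (-0.97, adjusted p = 0.114). It was lost, with smaller shifts of the value, without number 13 (edgeR, -1.20, adjusted p = 0.0502), number 21 (-1.19, adjusted p = 0.0617), number 22 (-1.07, adjusted p = 0.0926) or number 24 (-1.17, adjusted p = 0.0633). Over the 14 omissions the adjusted p ran from 0.0136 to 0.136. Limma voom with quality weights gave -1.06 (adjusted p = 0.0937) and DESeq2 gave -1.22 (adjusted p = 0.0119). Within a diet the change was -0.89 on high salt (edgeR, n = 7, unadjusted p = 0.0765, adjusted p = 0.450, 95% interval -1.90 to 0.11). On normal salt it was -1.58 (edgeR, n = 7, unadjusted p = 0.00360, adjusted p = 0.124, 95% interval -2.51 to -0.64). These fits called 0 of 11404 and 0 of 11426 IDs, so the lack of a call within a diet is not particular to Wt1.

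Podxl and Vegfa did not pass the same test. From number 9 to number 24 Podxl changed by 0.29 ± 0.21 on the log2 scale (SE; edgeR, adjusted p = 0.366, 95% interval -0.16 to 0.74). Vegfa changed by -0.22 ± 0.28 (SE; edgeR, adjusted p = 0.618, 95% interval -0.81 to 0.37). Both were highest at number 21, at 1786 CPM for Podxl and 955 CPM for Vegfa, and lowest at number 15, at 915 and 449 CPM, so that neither ran in a straight line along the number. Without numbers 9 and 10 the Vegfa change was 0.20 and the Podxl change 0.58 (edgeR, adjusted p = 0.751 and 0.185), the latter with a 95% interval of 0.058 to 1.10.

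**Figure D3:**
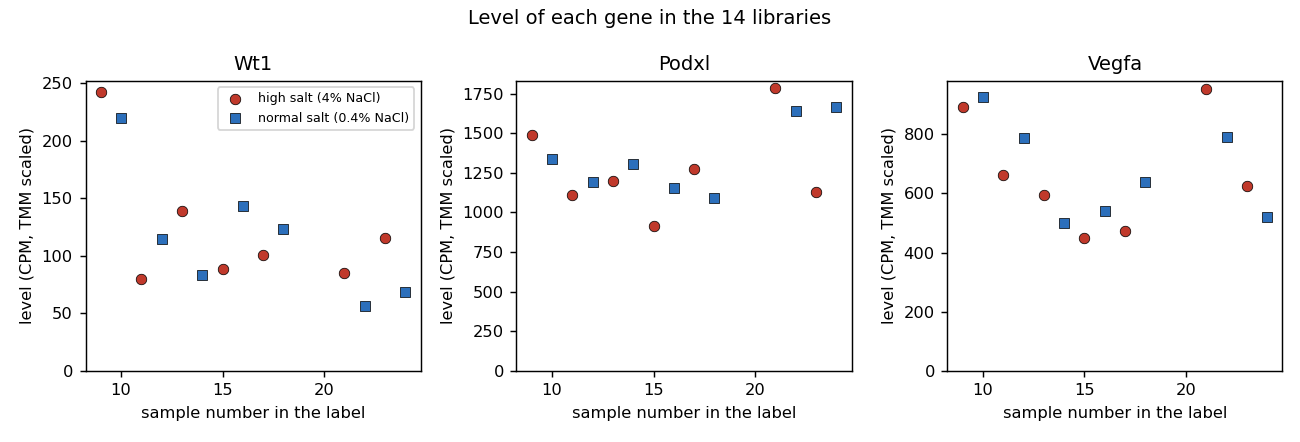
Level of Wt1, Podxl and Vegfa in CPM (vertical axes start at 0) against the sample number, each point a library. Wt1 is highest at numbers 9 and 10 (242 and 220 CPM), whereas Podxl and Vegfa peak at number 21 (1786 and 955 CPM).

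The balance between Podxl and Wt1 shifted with the number by Pearson over all 14 libraries, but not by rank after adjustment. The ratio holds the Wt1 count, so this shift is not separate from that of Wt1 itself. There were 6.15 Podxl counts for each Wt1 count at number 9 and 6.09 at number 10, and 21 at number 21, 29.3 at number 22 and 24.4 at number 24. Number 23, at 9.83, lay among the lower libraries. Over the 14 libraries the log2 ratio correlated with the number at r = 0.674 by Pearson (permutation p = 0.00912, or 0.0274 adjusted over 3 ratios) and at rho = 0.565 by Spearman (permutation p = 0.0392, or 0.0588 adjusted). Leaving out the extreme numbers 23 and 24 gave r = 0.734. Within diets it was 0.525 in the high salt libraries (n = 7, exact permutation p = 0.224) and 0.788 in those on normal salt (n = 7, exact permutation p = 0.0429, adjusted p = 0.129). Without numbers 9 and 10 it was 0.520 (permutation test, adjusted p = 0.249), and it no longer passed without any of numbers 9, 10, 21, 22 or 24 (r from 0.594 to 0.640, adjusted p from 0.0544 to 0.0934).

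For Vegfa to Wt1 the correlation with the number was r = 0.520 (permutation p = 0.0568, adjusted p = 0.0618; rho = 0.490, permutation p = 0.0789). For Vegfa to Podxl it was r = -0.513 (permutation p = 0.0618, adjusted p = 0.0618; rho = -0.609, permutation p = 0.0236, adjusted p = 0.0588). Omitting numbers 23 and 24, these values were 0.609 and -0.434. Neither r passed after adjustment in all 14 libraries, and each did without single libraries: Vegfa to Wt1 without number 11 (0.636) or 23 (0.598), and Vegfa to Podxl without number 14 (-0.600) or 23 (-0.616). Within high salt r was 0.414 for Vegfa to Wt1 and -0.254 for Vegfa to Podxl (n = 7, exact permutation p = 0.353 and 0.612). Within normal salt it was 0.605 and -0.682 (n = 7, exact permutation p = 0.145 and 0.0944).

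The levels of the 3 genes were compared over the libraries, since a shared podocyte content would tend to move them together. No pair passed after adjustment in all 14 libraries on TMM scaling, which does not show that a relation is absent. What moves each level was not tested. Correlations were computed on log2 CPM over the 14 libraries for 3 pairs. Wt1 and Podxl gave r = -0.177 (permutation p = 0.546, adjusted p = 0.546) and rho = -0.209 (permutation p = 0.474, adjusted p = 0.484). Wt1 and Vegfa gave r = 0.350 (permutation p = 0.221, adjusted p = 0.332) and rho = 0.204 (permutation p = 0.484, adjusted p = 0.484). Podxl and Vegfa gave the highest value, r = 0.511 (permutation p = 0.0635, adjusted p = 0.190) and rho = 0.424 (permutation p = 0.133, adjusted p = 0.398). That pair passed without number 24, at r = 0.682 (permutation test, adjusted p = 0.0282).

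These values were not unusual among all IDs. The middle 90% of the other 11157 IDs correlated with Wt1 between -0.686 and 0.685, and Podxl ranked 6839th and Vegfa 2742nd in that order. With Vegfa the middle 90% lay between -0.522 and 0.597, and Podxl ranked 917th. Without the 2 libraries farthest from the median of the first gene, r was -0.559 for Wt1 and Podxl and -0.148 for Wt1 and Vegfa (without numbers 9 and 10), and 0.183 for Podxl and Vegfa (without numbers 15 and 21). Numbers 15 and 21 are the lowest and highest libraries of both Podxl and Vegfa, so leaving them out tends to lower r. Without number 15 alone r for this pair was 0.380, and without number 21 alone it was 0.374.

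The correlation of Wt1 with Podxl had opposite signs at low and high sample numbers, but neither value passed. In numbers 9 to 16 it was r = 0.677 (n = 8, exact permutation p = 0.0613, adjusted p = 0.0613). In numbers 17 to 24 it was r = -0.837 (n = 6, exact permutation p = 0.0542, adjusted p = 0.163). By rank the values were rho = 0.643 and -0.771 (exact permutation p = 0.0962 and 0.103). The difference between the 2 ranges was not tested. Wt1 and Vegfa gave r = 0.727 (exact permutation p = 0.0482, adjusted p = 0.0613) and -0.262 (exact permutation p = 0.592) in the same ranges. Podxl and Vegfa gave r = 0.687 (exact permutation p = 0.0531) and 0.464 (exact permutation p = 0.328). In the first range the 3 genes were all high at numbers 9 and 10. In the second, Podxl was high at numbers 21, 22 and 24, where Wt1 stood at 85.2, 55.9 and 68.3 CPM, below its level in the other libraries of that range.

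By diet, Podxl and Vegfa correlated at r = 0.826 in the high salt group (n = 7, exact permutation p = 0.025, adjusted p = 0.075) and at 0.0261 under normal salt (n = 7, exact permutation p = 0.949). By rank the high salt value was rho = 0.643 (exact permutation p = 0.139, adjusted p = 0.417). Numbers 15 and 21, the lowest and highest libraries of both genes, are both on high salt. The difference between the diets was not tested. Wt1 and Podxl gave r = 0.279 on high salt (exact permutation p = 0.523) and -0.653 on normal salt (exact permutation p = 0.116). Wt1 and Vegfa gave 0.355 under high and 0.369 under normal salt (exact permutation p = 0.450 and 0.401). After removal of diet and a straight line on the number, r was 0.0629 for Wt1 and Podxl, 0.297 for Wt1 and Vegfa and 0.630 for Podxl and Vegfa (permutation test, adjusted p = 0.828, 0.450 and 0.0485). Permuting residuals does not count the terms already fitted, so these p-values run too small, and 0.0485 is not read as a pass.

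**Figure D4:**
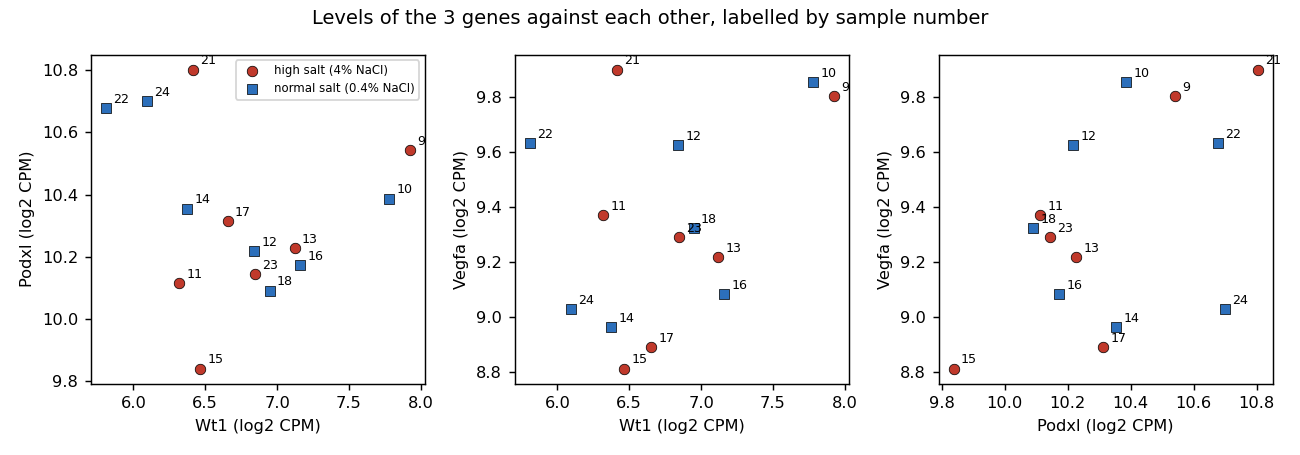
Pairs of the 3 genes in log2 CPM, each point a library labelled with its sample number, coloured by diet. Wt1 and Podxl have r = 0.677 in numbers 9 to 16 and r = -0.837 in numbers 17 to 24, neither of which passed. Over all 14 libraries r is -0.177.

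Podxl was high where the 10 most abundant IDs took a small share of the library. Its level was highest, 1786 CPM, at number 21, where that share was 30.8%, and lowest, 915 CPM, at number 15, where it was 64.9%. Over the 14 libraries log2 CPM of Podxl correlated with the share at r = -0.901 (permutation p = 3e-05, adjusted p = 9e-05 over 3 genes) and rho = -0.881 (permutation p = 7e-05, adjusted p = 0.00021). When numbers 15 and 21, the extreme shares, were left out, r was -0.802 (permutation p = 0.00182). It was -0.946 in numbers 9 to 16 (n = 8, exact permutation p = 0.000422) and -0.912 in numbers 17 to 24 (n = 6, exact permutation p = 0.0319, adjusted p = 0.0958). Of the 11148 IDs tested outside the 10, 0.0718% had a more negative correlation with the share than Podxl.

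A share and a depth-scaled level are coupled when both are taken over the same total. With library sizes counted outside the 10 IDs, r for Podxl was -0.904, and on uncorrected totals it was -0.973. Vegfa gave r = -0.726 (permutation p = 0.00258, adjusted p = 0.00387; rho = -0.657, permutation p = 0.0128, adjusted p = 0.0192). On the 12 libraries other than numbers 15 and 21 it was -0.544 and no longer passed (permutation test, adjusted p = 0.103). It was -0.720 in numbers 9 to 16 (n = 8, exact permutation p = 0.0391, adjusted p = 0.0586) and -0.780 in numbers 17 to 24 (n = 6, exact permutation p = 0.0875, adjusted p = 0.131). Wt1 showed r = -0.0631 (permutation p = 0.833; rho = -0.0286, permutation p = 0.926), with -0.654 in numbers 9 to 16 and 0.677 in numbers 17 to 24 (exact permutation p = 0.0724 and 0.156). By rank, Vegfa and Wt1 each passed in numbers 9 to 16 (rho = -0.762, exact permutation p = 0.0368, adjusted p = 0.0368). In numbers 17 to 24 neither passed by rank (rho = -0.771 for Vegfa and 0.657 for Wt1, exact permutation p = 0.103 and 0.175). On uncorrected totals the correlation of Podxl with Vegfa was 0.814, against 0.511 with TMM. The 10 IDs have no symbols in the sources used, and what their share records was not tested. This comparison was added after the values of the libraries had been seen.

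**Figure D5:**
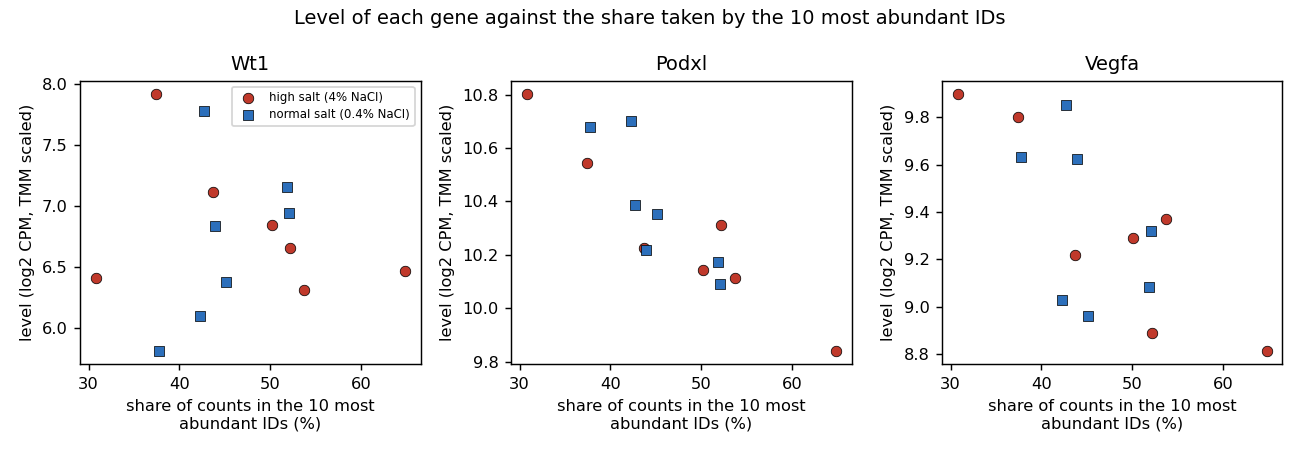
Level of Wt1, Podxl and Vegfa in log2 CPM against the percentage of a library's counts that fell on the 10 most abundant IDs, each point a library. Podxl falls from 30.8% to 64.9% of counts (r = -0.901), Vegfa less closely (r = -0.726), and Wt1 has r = -0.0631 over all libraries.

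Some IDs followed each gene far more closely than the other 2 did. Among 6762 other IDs with a mean of at least 10 CPM, 118 correlated with Wt1 at r of 0.8 or more, 70 with Podxl and 71 with Vegfa, with highest values of 0.958, 0.956 and 0.971. Nearest to all 3 genes by mean r over the 14 libraries were ENSRNOG00000008237 (mean r = 0.656) and ENSRNOG00000020533 (mean r = 0.655). Farthest were ENSRNOG00000030644 (mean r = -0.608, mean level 46304 CPM) and ENSRNOG00000038202 (mean r = -0.603, mean level 86.2 CPM). Whether the first is one of the 10 most abundant IDs was not checked, so its correlation may repeat that of the share. These correlations are descriptions, chosen as extremes of many, and the IDs have no symbols here.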

How the data were processed

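Per the labels' protocols, TRIzol was used for RNA of sieved cortical glomeruli, and Lexogen's QuantSeq FWD kit for libraries of 3′ tags. The authors deposited raw counts per Ensembl gene ID for 14 libraries, with a mean of at least 3 counts for each ID. They also deposited a normalized signal, in which each library's counts are scaled by a constant, with diet means. The same deposited file gives a signed fold, treated here as a score and not used, and a log2 fold change of the means by the authors. DESeq2 1.18.1 in R 3.4.3 and the mouse build GRCm38 are named per the submitters' processing notes, while the IDs are rat IDs. The aligner, the counter, the annotation and any molecular identifiers are not stated in these sources, so whether counts are reads or molecules is unknown.

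Raw counts of all IDs were tested by the quasi-likelihood test of edgeR 4.0.16 (R 4.3.3) with robust dispersions, TMM factors and the filterByExpr filter, and with Benjamini-Hochberg adjustment over the 11158 IDs kept and a threshold of 0.05. Diet was fitted alone, and the sample number together with diet. Intervals are 95% and come from the F statistic. Correlations used log2 CPM with a prior count of 2 and 100000 permutations, or all orders for 8 or fewer libraries. Diet differences of single values used the exact permutation test over samples. Alternatives were other scalings and filters, DESeq2 1.42.0, limma 3.58.1, other covariates, number ranges and leaving out each library. The fits were also run on simulated data with the same dispersion for every ID. That setting differs from these libraries, so the run is not used as support. The genes, motifs and tests were chosen with earlier results of these data known. Genes other than the 3 were named only as the 2 IDs of highest and the 2 of lowest mean correlation at 10 CPM or more. The lists of cell type markers could not be applied without symbols.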

Additional observations from a re-analysis of the deposited data

Results flagged for a closer look

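Among 12 groups of 7 libraries (3 levels and 3 ratios in each diet), 2 held a library far from its group by Dixon's test. Levels were taken in CPM and ratios as log2. For normally distributed values chance flags about 1 in 20 groups, and that distribution was not checked. Wt1 at high salt number 9 stood at 242 CPM, while the nearest other high salt library had 139 CPM and the lowest 79.6 CPM. In log2 CPM these libraries stood at 7.92, 7.12 and 6.32, a smaller gap for the range, so this flag depends on the scale. The log2 ratio of Vegfa to Podxl at high salt number 17 was -1.42, while the nearest other high salt library had -1.03 and the highest -0.74.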

How the results depend on the processing

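The diet comparison called 0 IDs in every fit run (edgeR, DESeq2, limma) and with every library left out, with 131 to 665 IDs at an unadjusted p below 0.05. Over single libraries left out, the diet log2 fold change ran from -0.19 to 0.31 for Wt1 and from -0.11 to 0.076 for Vegfa. It was -0.027 for Wt1 in numbers 9 to 16, and for Vegfa 0.027 with limma voom and 0.066 in numbers 17 to 24. For the sample number, 1418 of 11158 IDs were called, and 2167 of the unfiltered 12934 IDs with DESeq2. By edgeR 411 were called without numbers 9 and 10, 0 on high salt alone and 0 on normal salt alone (1419 and 2522 at an unadjusted p below 0.05). Over single omissions 451 to 2118 were called: 451 without number 22, 513 without 10, 547 without 9, 762 without 12, 926 without 21 and 2118 without 23. The Wt1 change ran from -1.54 to -0.91 over omissions and was -1.06 with limma voom, -0.50 without numbers 9 and 10, -0.89 on high salt and -1.58 on normal salt; the Vegfa change was 0.20 without numbers 9 and 10.

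The Wt1 and Podxl correlation turned positive on high salt (0.279), in numbers 9 to 16 (0.677), on uncorrected totals (0.302) and for residuals on the number (0.0629). Wt1 and Vegfa turned negative in numbers 17 to 24 (-0.262) and without numbers 9 and 10 (-0.148). Podxl and Vegfa passed on uncorrected totals (0.814), and ran from 0.374 to 0.682 over omissions, passing without number 24. For residuals r was 0.630 (permutation test, adjusted p = 0.0485), where p runs too small because the fitted terms are not counted. The Podxl to Wt1 ratio against the number did not pass on high salt (0.525), on normal salt (0.788) or without numbers 9 and 10 (0.520), and ran from 0.594 to 0.789 over omissions. Vegfa to Wt1 ran from 0.417 to 0.636 and Vegfa to Podxl from -0.616 to -0.332. Against the share of the 10 most abundant IDs, values of Pearson r that lost the threshold or turned were -0.912 (Podxl, numbers 17 to 24), -0.720, -0.780 and -0.544 (Vegfa, numbers 9 to 16, 17 to 24, and without 15 and 21) and 0.677 (Wt1, numbers 17 to 24). By rank, Vegfa and Wt1 each passed in numbers 9 to 16 (rho = -0.762, exact permutation test, adjusted p = 0.0368). The ratio differences between diets ran from -0.37 to 0.0096 (Podxl to Wt1), from -0.30 to 0.061 (Vegfa to Wt1, 0.0032 in numbers 9 to 16) and from -0.053 to 0.14 (Vegfa to Podxl). The cause of these shifts was not tested. Range fits hold 6 to 8 libraries. The diets share no sample number, so the labels pair no libraries. In a fit with 7 blocks of consecutive numbers, each with 1 library per diet, 0 IDs were called and the diet log2 fold changes were 0.11 for Wt1 (ratio 0.805 to 1.44), -0.088 for Podxl (0.799 to 1.11) and -0.031 for Vegfa (0.832 to 1.15), with intervals narrower than without blocks. What depth limits was not tested.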
